A study of Homo sapiens with 6 samples.

Results

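Aminoacyl-tRNA synthetases attach each amino acid to its matching tRNA before the ribosome uses it. The genes described here are the cytosolic enzymes and the mitochondrial enzymes whose symbols end in 2, taken from the deposited expression table by symbol. All 36 were listed once among 27420 genes, 20 cytosolic and 16 mitochondrial. RNA-seq was performed on A673 and SKNMC, established cell lines of Ewing sarcoma, and each line was exposed for 6 h to THZ1 at 50 nM, to THZ1 at 200 nM, or to DMSO alone as the vehicle. THZ1 is a covalent inhibitor of CDK7, a kinase that phosphorylates the C-terminal domain of RNA polymerase II. Both lines were grown in DMEM with fetal bovine serum. Each condition had 1 library, so no change within a line has a replicate error or a test, and a difference between libraries may be a difference between cultures or preparations. A test was made only of the mean change over both lines, with the lines as the replicates of a dose. The files hold FPKM, which corrects fragment numbers for the length of the transcript and for library size, so values can be compared between genes, and the read depth is unknown.

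In the cytosol each amino acid has its own enzyme, apart from glutamate and proline, which share the fused enzyme EPRS, and phenylalanine, whose enzyme is built from the subunits FARSA and FARSB. Mitochondria translate their own small genome and use a separate set of enzymes, made from nuclear genes and imported. GARS and KARS serve both compartments from a single gene, and the cytosolic QARS has no mitochondrial partner because mitochondrial glutaminyl-tRNA is made from glutamyl-tRNA by an amidotransferase. Several cytosolic enzymes sit in a multisynthetase complex held together by the scaffolds AIMP1, AIMP2 and EEF1E1. Many cytosolic synthetase genes are known targets of ATF4, a transcription factor of the amino acid response.

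The regulatory letters that members share, or that belong to the genes with the steepest falls, are shown first. Promoters from RefSeq (GRCh38.p14, 250 bases before to 50 after each start) were matched for 30 of the 36 genes; DARS, LARS, VARS, YARS, AARS2 and VARS2 were not matched. The letters TGATGNAA, a form of the element that ATF4 binds with a C/EBP partner, were searched on both strands. They stood in the promoters of 7 of 16 matched cytosolic genes and of 1 of 14 mitochondrial genes, YARS2. Of all 27305 genes with a promoter entry, 4.46% had them in at least 1 promoter. The 7 cytosolic windows follow, 30 bases each on the strand of the gene, with the matched letters in capitals.
AARS (chr16:70289675-70289704): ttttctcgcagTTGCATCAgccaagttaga
CARS (chr11:3057407-3057436): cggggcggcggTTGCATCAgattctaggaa
GARS (chr7:30594834-30594863): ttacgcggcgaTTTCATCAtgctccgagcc
IARS (chr9:92293692-92293721): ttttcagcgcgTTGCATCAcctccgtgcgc
MARS (chr12:57488053-57488082): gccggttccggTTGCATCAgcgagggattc
NARS (chr18:57621804-57621833): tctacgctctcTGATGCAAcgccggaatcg
TARS (chr5:33440956-33440985): gcgcctttcgaTTGCATCAgctggtccagc

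Counted from the start, the match began at position -187 in AARS, and between -33 and 14 in the other 6. HARS and HARS2 are transcribed away from each other, and their canonical starts lie 84 bases apart. The plus strand between the starts is printed with 2 matches to CCGGAAGT, the letters of the ETS family to which FLI1 belongs, in capitals. These letters stood in a promoter of 4.95% of all genes with an entry, of 5 of 16 cytosolic and of 3 of 14 mitochondrial ones, counting HARS and HARS2 in each.
HARS and HARS2 (chr5:140691371-140691454): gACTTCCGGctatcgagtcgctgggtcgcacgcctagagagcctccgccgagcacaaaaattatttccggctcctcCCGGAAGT

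PARS2 and MARS2, the mitochondrial prolyl and methionyl enzymes, had the lowest mean changes of the 36 genes. The PARS2 stretch is shown on its minus strand with both ETS matches in capitals, which began at -217 and -135 from the start. The MARS2 stretch is the 50 bases before its start, with overlapping matches to the NRF1 core GCGCATGC on both strands and the E-box CACGTG in capitals. The NRF1 core stood in a promoter of 3.68% of all genes with an entry and the E-box in 8.77%.
PARS2 (chr1:54764644-54764743): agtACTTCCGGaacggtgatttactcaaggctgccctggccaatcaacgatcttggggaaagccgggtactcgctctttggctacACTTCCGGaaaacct
MARS2 (chr2:197705319-197705368): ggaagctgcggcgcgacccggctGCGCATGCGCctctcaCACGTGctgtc

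The label of the cells was checked first. All 6 Ewing sarcoma markers (CD99, NKX2-2, NR0B1, STEAP1, FLI1, EWSR1) stood above 1 FPKM in every library, between 3.60 and 763 FPKM. The muscle genes MYOD1, MYOG and DES were at or near 0, with 0.0918 FPKM as their highest value, and the T-cell gene CD3E was listed at 0 in all 6 libraries. PTPRC, a leukocyte gene, was at 7.90 to 13.1 FPKM in SKNMC and at most 0.0291 FPKM in A673. Of the epithelial genes, EPCAM was below 1 FPKM in all 6 libraries, from 0.0229 to 0.826, while the keratin gene KRT8 was at 11.0 to 14.2 FPKM in both lines. The part of PTPRC and KRT8 in any result was not tested. The listed FPKM of the THZ1 libraries summed to between 97.8% and 100.5% of the DMSO library of the line. Since FPKM is a share of each library, fewer cells, less RNA per cell or an even loss of all transcripts leaves no trace in these values.

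In the DMSO libraries all 36 genes were active, taken as above 1 FPKM. The cytosolic enzymes had the higher levels, with a median of 75.8 FPKM in A673, from 32.4 to 136, and of 65.9 FPKM in SKNMC, from 27.7 to 119. The mitochondrial enzymes had medians of 12.1 FPKM, from 2.24 to 57.1, and of 15.2 FPKM, from 5.93 to 75.4. Summed over genes, the cytosolic transcripts stood at 6.48 times the mitochondrial ones in A673 and at 4.55 times in SKNMC. Among the 13 amino acids with 1 listed gene for each compartment, the cytosolic gene had the higher FPKM in 13 pairs in A673 and in 12 in SKNMC. The exception was isoleucine, where IARS2 stood at 75.4 FPKM in SKNMC against 61.4 FPKM for IARS.

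At baseline 3 of the 36 genes were 2-fold or more apart between the lines on the log2(FPKM + 1) scale. Among the 12399 genes active in either line 23.5% were. Unlike the members, that set includes genes active in 1 line alone, since 10574 were active in both. AARS, the alanyl enzyme, was at 57.6 FPKM in A673 and 27.7 FPKM in SKNMC. LARS2, the mitochondrial leucyl enzyme, was at 4.57 and 11.7 FPKM, and PARS2 at 2.24 and 5.93 FPKM. Of the cytosolic genes 15 of 20 were higher in A673, and of the mitochondrial genes 12 of 16 were higher in SKNMC. These counts rest on 1 DMSO library a line, and the share of all active genes higher in either line was not computed.

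**Figure D1:**
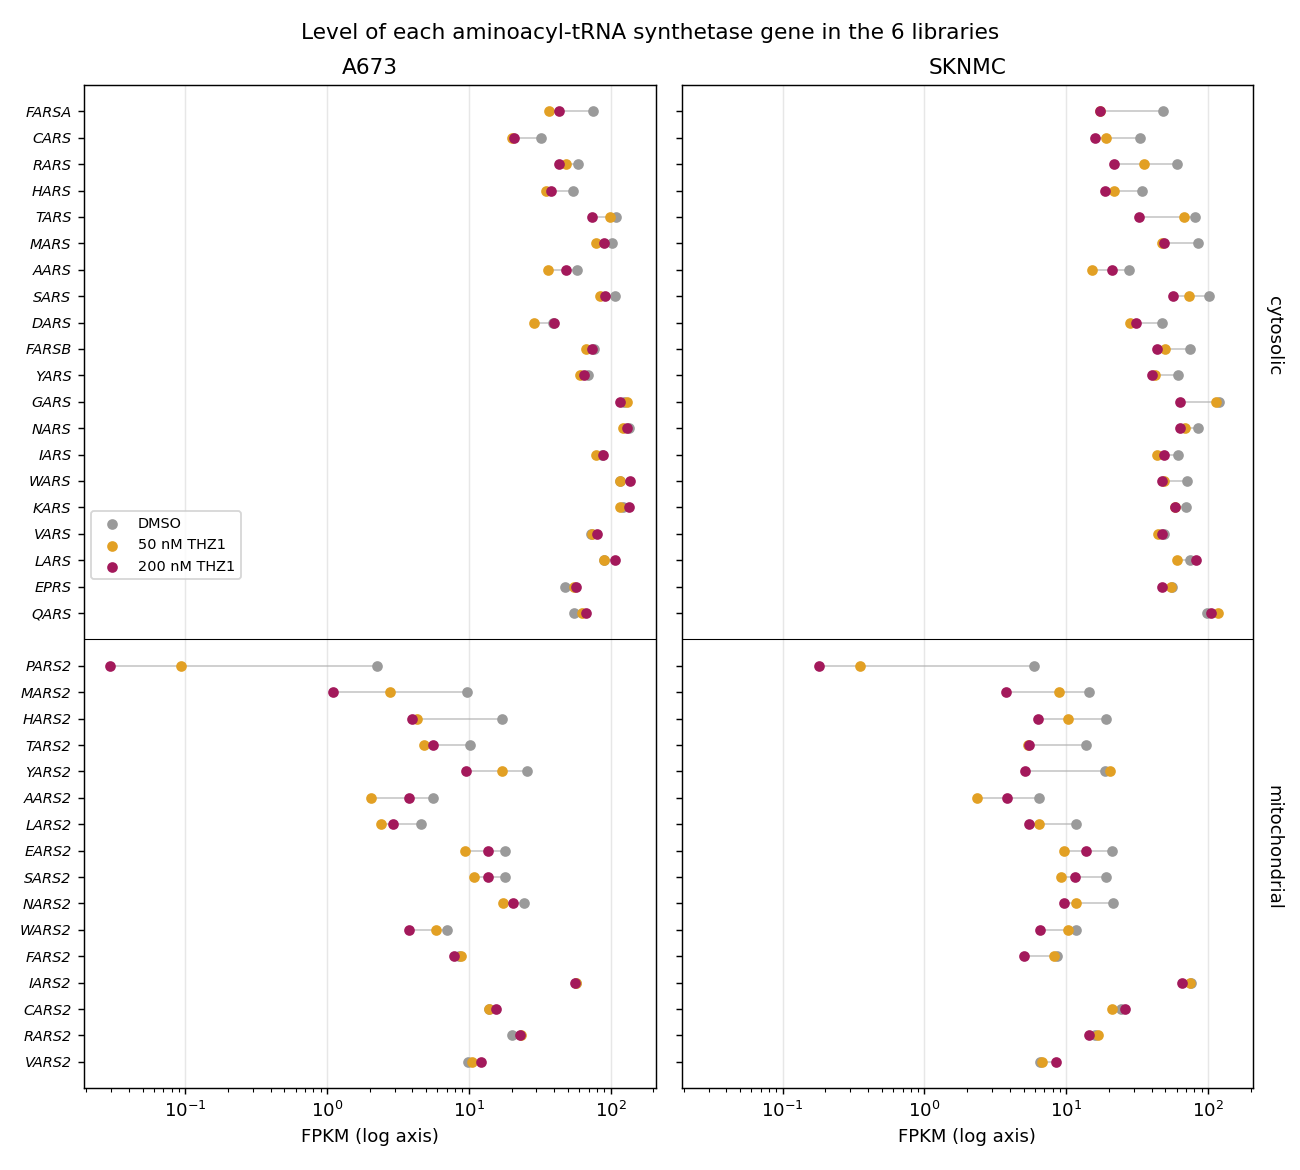
FPKM (log axis) of the 20 cytosolic and 16 mitochondrial synthetase genes in A673 and SKNMC, 1 point per library, with grey for DMSO, yellow for 50 nM and purple for 200 nM THZ1; grey lines span the 3 libraries of a line, and genes are ordered by mean change within each compartment. PARS2 spans 2.24 to 0.0295 FPKM in A673, while IARS2 stays between 56.3 and 57.1 FPKM.

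To see how the synthetases responded to CDK7 inhibition, changes were computed as log2 of (FPKM + 1) with THZ1 over (FPKM + 1) with DMSO in the same line, a scale that compresses the change of low genes. The mitochondrial enzymes had a lower median than the cytosolic ones in every comparison, and no member was higher by 2-fold or more in any. At 50 and 200 nM, the cytosolic genes of A673 had median changes of -0.16 and -0.07, and the mitochondrial genes of -0.61 and -0.43. All active genes had medians of -0.27 and -0.40 there, so the cytosolic enzymes lay above the typical gene in A673 and the mitochondrial enzymes below it. In SKNMC the cytosolic medians were -0.50 and -0.59 and the mitochondrial ones -0.71 and -0.72, against -0.32 and -0.55 for all active genes. The difference between the medians, mitochondrial minus cytosolic, was thus -0.45 and -0.36 in A673, and -0.21 and -0.13 in SKNMC. The changes at 50 and 200 nM of a line share its DMSO library, and with it any error of that library.

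A fall of 2-fold or more was found at 50 nM in A673 for 1 of 20 cytosolic and 4 of 16 mitochondrial genes, with 15.9% of all active genes as background. At 200 nM the counts were 0 of 20 and 4 of 16, with a background of 25.3%. In SKNMC at 50 nM they were 1 of 20 and 4 of 16, with 15.8%, and at 200 nM 4 of 20 and 6 of 16, with 27.3%. The background shares would give 3.17, 5.05, 3.15 and 5.45 of 20 cytosolic genes, so each cytosolic count was below them. For 16 mitochondrial genes they would give 2.54, 4.04, 2.52 and 4.36, so the mitochondrial counts were near the background, at most 1.64 genes above it. Of all active genes, 0.343% and 0.126% were higher by 2-fold or more in A673, and 0.471% and 0.462% in SKNMC. By a 1.5-fold rule, 4 and 2 cytosolic genes and 8 and 6 mitochondrial genes were lower in A673, with backgrounds of 31.8% and 41.1%. In SKNMC 7 and 12 cytosolic and 9 and 11 mitochondrial genes were, with 33.5% and 48%.

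By gene, 24 of the 36 did not reach 2-fold in any comparison, and 12 did at least once, 4 cytosolic and 8 mitochondrial; among genes active in both lines 37.3% did. PARS2 was the only member past 2-fold in all 4, as were 8.70% of genes active in both lines. In sign alone, 22 members were lower in all 4 comparisons, and 2, QARS and VARS2, were higher in all 4, against 52.9% and 10.0% of genes active in both lines. These signs depend on the scaling of the libraries. Divided by the 75th percentile of active genes, 12 members were lower and 8 higher in all 4, the A673 cytosolic medians turned to 0.091 and 0.30, and 11 of the 24 falls past 2-fold were left, all of them of PARS2, MARS2, HARS2, FARSA or YARS2. With ribosomal protein genes as the scale, all 36 were lower in all 4.

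The mean change over both lines was then tested with limma on log2(FPKM + 1), with the line as a block. The fit covered the 10574 genes active in both lines. Its p-values measure the spread of a change between the lines, with 2 residual degrees of freedom a gene and a prior of 9.48 from all genes, and not the spread between cultures. At 50 nM 7 of 20 cytosolic and 9 of 16 mitochondrial genes were lower at an adjusted p under 0.05, against 38.5% of all genes tested. At 200 nM 9 of 20 and 11 of 16 were, against 52.7%. A call does not require a change in each line. Those at 200 nM include GARS, at -0.11 in A673 and -0.91 in SKNMC, and FARSB, at -0.06 and -0.76. No member was higher at either dose at an adjusted or an unadjusted p under 0.05, against 5.12% and 6.08% of all genes by the adjusted p. FARSA had a mean change over the lines of -1.22 ± 0.17 (SE) at 50 nM and -1.10 ± 0.17 at 200 nM, with limma adjusted p of 0.000153 and 0.000149. For PARS2 the mean changes over the lines were -1.96 ± 0.22 and -2.10 ± 0.22, and for MARS2 -1.08 ± 0.22 and -2.03 ± 0.22. The cytosolic count at 50 nM was the least stable, from 2 to 12 when each of the 6 libraries was left out in turn, and at 200 nM both counts were lowest, at 5 and 6, without SKNMC at 200 nM; the lone library of a dose is then assumed to vary like the others. These calls also depend on the scale of the libraries. With the 75th percentile, 4 and 4 cytosolic and 8 and 5 mitochondrial genes were lower, against 25.1% and 31.9% of all genes. On that scale 2 and 6 cytosolic and 1 and 4 mitochondrial genes were higher, against 17.7% and 24.7% of all genes. At 50 nM FARSA, AARS2, EARS2, HARS2, MARS2, PARS2, SARS2 and TARS2 were lower under 3 other scalings and without any 1 of the 6 libraries. At 200 nM CARS, FARSA, RARS, TARS, HARS2, MARS2, PARS2, TARS2 and YARS2 were. The share of all genes tested that stay lower in all these settings was not computed, so these lists have no background.

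**Figure D2:**
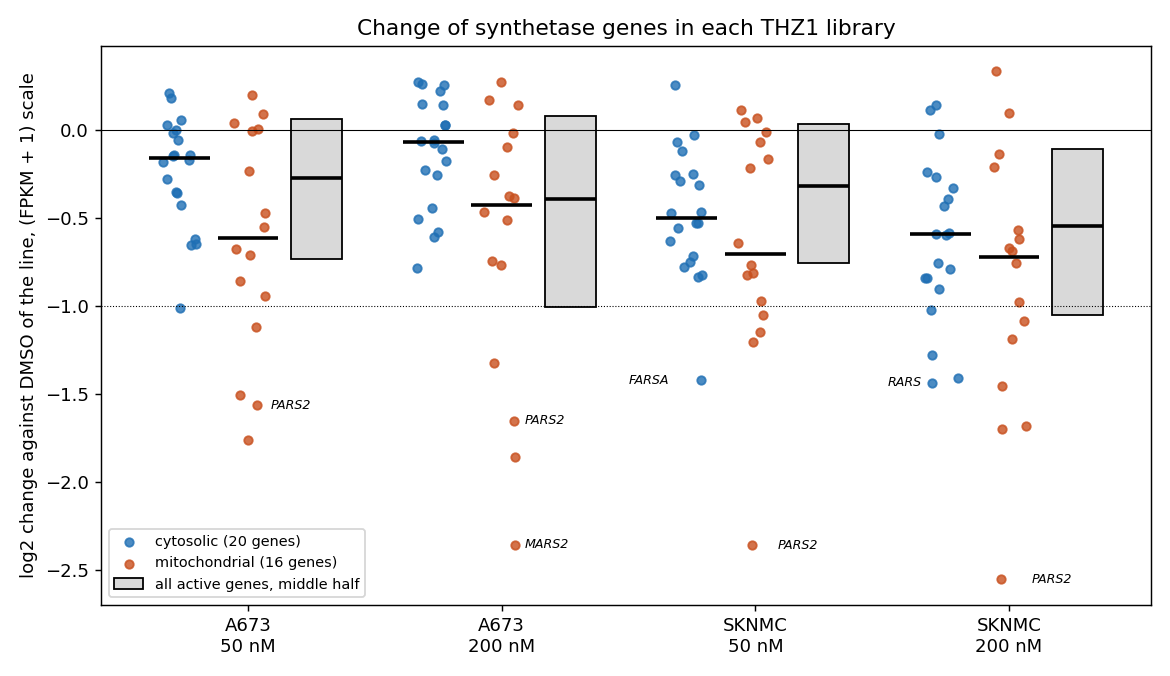
Change of each synthetase gene against DMSO, log2 on the (FPKM + 1) scale, in each THZ1 library; blue points are cytosolic and orange points mitochondrial genes, black bars are medians, the box is the interquartile range of all active genes, and the dotted line marks a 2-fold fall. The mitochondrial median lies below the cytosolic one in all 4 comparisons, at -0.61 against -0.16 in A673 at 50 nM and at -0.72 against -0.59 in SKNMC at 200 nM.

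Among the mitochondrial enzymes, PARS2 (chr1:55222571-55230187 in hg19, minus strand, 2 exons) had the deepest fall. It was at 2.24 FPKM in the A673 library with DMSO, 0.0931 with 50 nM and 0.0295 with 200 nM THZ1, and at 5.93, 0.350 and 0.180 FPKM in SKNMC. The THZ1 libraries held between 1.32% and 5.90% of the DMSO level in both lines. On the (FPKM + 1) scale its changes were -1.57 and -1.65 in A673 and -2.36 and -2.55 in SKNMC, and values this near 0 may rest on few fragments. PARS2 loads mitochondrial tRNA with proline. EPRS, which does this in the cytosol, was at 47.7, 55.2 and 57.4 FPKM in A673 and at 56.0, 54.8 and 47.3 FPKM in SKNMC, so it did not follow PARS2 in either line.

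MARS2 (chr2:198570087-198573113, plus strand, 1 exon), the mitochondrial methionyl enzyme, was lower at each higher dose in both lines. Its FPKM was 9.77 in the A673 library with DMSO, 2.79 with 50 nM and 1.10 with 200 nM THZ1, and 14.5, 8.90 and 3.76 in SKNMC. The changes were -1.51 and -2.36 in A673, and -0.64 and -1.70 in SKNMC, where the lower dose left it short of 2-fold. MARS2 and PARS2 were the members with the fewest exons, since the canonical transcripts of the others had 5 to 34. Among active protein-coding genes with a canonical transcript, those with 1 exon were past a 2-fold fall in 44.2% at the lower and 56.9% at the higher dose of A673. Those with 10 or more exons were in 10.4% and 19.8%. In SKNMC the shares were 34.7% and 43.4% for 1 exon and 9.50% and 19.8% for 10 or more. Genes with 2 exons, as PARS2 has, were past it in 33.0% and 53.5% in A673 and in 33.3% and 52.8% in SKNMC. Those with 3 to 9 exons were in 18.5% and 27.3%, and in 19.3% and 32.4%. HARS2 and FARSA, the next lowest members by mean change, had 13 exons each, and the part of exon number was not tested.

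HARS2 (chr5:140071011-140078889, plus strand) was at 17.1, 4.34 and 3.98 FPKM in A673 and at 19.1, 10.4 and 6.34 FPKM in SKNMC with DMSO, 50 nM and 200 nM. All 4 THZ1 libraries lay below both DMSO libraries. Its changes of -1.76 and -1.86 in A673 and of -0.82 and -1.45 in SKNMC were steeper than those of HARS, the cytosolic histidyl enzyme that starts beside it on the other strand. HARS (chr5:140052758-140071609) was at 54.7, 35.3 and 38.1 FPKM in A673, and at 34.3, 21.8 and 18.8 FPKM in SKNMC. It changed by -0.62 and -0.51 in A673 and by -0.63 and -0.84 in SKNMC. The ratio of HARS2 to HARS went from 0.313 to 0.123 and 0.104 in A673 and from 0.557 to 0.475 and 0.338 in SKNMC, so transcripts from this shared start region did not fall in step. The annotated genes overlap by 599 bases on opposite strands, and strand use in counting is not given in the sources used here.

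TARS2 (chr1:150459887-150480078), the mitochondrial threonyl enzyme, was at 10.2, 4.83 and 5.59 FPKM in A673 and at 13.8, 5.42 and 5.48 FPKM in SKNMC. Its change was close to the 2-fold mark in A673, at -0.95 and -0.77, and past it in SKNMC, at -1.20 and -1.19, with little between the doses. AARS2 (chr6:44267391-44281063), the mitochondrial alanyl enzyme, was at 5.59, 2.03 and 3.76 FPKM in A673 and at 6.41, 2.34 and 3.82 FPKM in SKNMC. In both lines it was lowest at 50 nM, with changes of -1.12 and -1.15, and part of the way back at 200 nM, with -0.47 and -0.62. EARS2 (chr16:23533335-23569052), which charges mitochondrial tRNA with glutamate, had the same order, at 17.9, 9.41 and 13.6 FPKM in A673 and at 21.0, 9.61 and 13.8 FPKM in SKNMC. Its changes were -0.86 and -0.38 in A673, and -1.05 and -0.57 in SKNMC.

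YARS2 (chr12:32880424-32908836), the mitochondrial tyrosyl enzyme, went the other way with dose. It was at 25.5, 17.1 and 9.59 FPKM in A673 and at 18.6, 20.2 and 5.11 FPKM in SKNMC. At 50 nM its change was -0.55 in A673 and 0.11 in SKNMC, and at 200 nM it was -1.32 and -1.68, so the fall past 2-fold belonged to the higher dose. DNM1L, a dynamin-like gene of mitochondrial fission, overlaps the listed span of YARS2 on the other strand over 18063 bases. Its changes were 0.03 and -0.37 in A673, and 0.10 and -0.78 in SKNMC. The canonical YARS2 transcript covers only chr12:32899478-32908831 of that span. A listed gene on the other strand overlaps 11 members, and not all such neighbours changed like the member. At 50 nM in A673 and SKNMC, UBFD1 was at 0.57 and 0.43 while EARS2, which it overlaps, fell. S100PBP was at -1.54 and -1.19, and YARS, which it overlaps, at -0.17 and -0.53. The part of these overlaps in any value was not tested. NARS2 (chr11:78147007-78285919), the mitochondrial asparaginyl enzyme, was at 24.7, 17.5 and 20.5 FPKM in A673 and at 21.5, 11.8 and 9.59 FPKM in SKNMC, and passed 2-fold in the SKNMC library at 200 nM alone, with -1.09.

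The other mitochondrial genes stayed short of 2-fold. LARS2, SARS2 and WARS2, the leucyl, seryl and tryptophanyl enzymes, were lower in all 4 comparisons, with changes between -0.17 and -0.98. SARS2 overlaps MRPS12, a mitochondrial ribosomal protein gene, on the other strand over 2615 bases, and MRPS12 had changes between -0.89 and -1.12. FARS2, the phenylalanyl enzyme, changed by between -0.10 and 0.04 in all but the SKNMC library at 200 nM, where it was at -0.67. IARS2, the isoleucyl enzyme and the most abundant of the mitochondrial genes, held between 86.3% and 99.4% of its DMSO level. CARS2, the cysteinyl enzyme, changed by between -0.22 and 0.14.

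RARS2 and VARS2 lay at the upper end. RARS2, the mitochondrial arginyl enzyme, was at 20.2, 23.3 and 22.8 FPKM in A673 and at 16.0, 16.8 and 14.5 FPKM in SKNMC. VARS2, the mitochondrial valyl enzyme, was at 9.91, 10.6 and 12.2 FPKM in A673 and at 6.57, 6.79 and 8.53 FPKM in SKNMC. Its changes of 0.09 and 0.27 in A673 and of 0.04 and 0.33 in SKNMC were positive in all 4 libraries, also with a common sum or the 75th percentile as the scale, and negative with ribosomal protein genes as the scale. The valyl transcript shares 94.4% of its 100-base stretches with a read-through annotation, so its value may include fragments of that transcript. SARS2 shares 76.4% with another read-through annotation, and no member shares a stretch of this length with another member.

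Among the cytosolic enzymes, FARSA (chr19:13033293-13044851, minus strand) fell most. This catalytic subunit of phenylalanyl-tRNA synthetase was at 75.2 FPKM in the A673 library with DMSO, 36.8 with 50 nM and 43.1 with 200 nM THZ1, and at 48.1, 17.3 and 17.4 FPKM in SKNMC. Its changes were -1.01 and -0.79 in A673 and -1.42 and -1.41 in SKNMC. FARSB, the other subunit of the same enzyme, was at 76.5, 67.2 and 73.4 FPKM in A673, and at 74.1, 50.0 and 43.5 FPKM in SKNMC. The ratio of FARSA to FARSB was 0.983 with DMSO in A673, and 0.547 and 0.587 with THZ1; in SKNMC it was 0.648, then 0.346 and 0.401. The transcripts of the subunits thus parted in both lines, and a ratio within a library does not depend on its scaling.

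RARS, TARS and CARS passed 2-fold only in SKNMC at 200 nM. RARS (chr5:167913450-167946304), the arginyl enzyme of the multisynthetase complex, was at 59.2, 48.7 and 43.3 FPKM in A673 and at 60.1, 35.4 and 21.6 FPKM in SKNMC, where its change was -0.75 at 50 nM and -1.44 at 200 nM. TARS (chr5:33440802-33469644), the threonyl enzyme, was at 110, 99.2 and 73.4 FPKM in A673 and at 81.2, 68.0 and 32.8 FPKM in SKNMC, with changes of -0.15 and -0.58 in the former and -0.25 and -1.28 in the latter. CARS (chr11:3022152-3078843), the cysteinyl enzyme, was at 32.4, 20.3 and 20.9 FPKM in A673 and at 33.4, 19.0 and 15.9 FPKM in SKNMC. Its changes, between -0.61 and -1.02, varied least of these 3 genes.

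GARS and KARS, the enzymes of both compartments, changed little outside 1 library. GARS was at 125, 130 and 116 FPKM in A673 and at 119, 113 and 63.0 FPKM in SKNMC, with -0.91 at 200 nM in SKNMC as its only change beyond 0.11 in size. KARS was at 121, 116 and 134 FPKM in A673 and at 70.2, 58.5 and 58.2 FPKM in SKNMC, with changes between -0.27 and 0.14. Neither gene behaved like the steepest mitochondrial genes, although both also supply mitochondria. QARS, the glutaminyl enzyme, was the highest of all 36 by mean change. It was at 55.4, 62.9 and 67.2 FPKM in A673 and at 97.7, 117 and 106 FPKM in SKNMC, which gave 0.18, 0.27, 0.26 and 0.11; the sign held with a common sum and with the 75th percentile, and turned with ribosomal protein genes as the scale.

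AARS, DARS, MARS, SARS and YARS were 1.5-fold or more lower in at least 1 comparison without reaching 2-fold, as were HARS, FARSB, GARS and WARS. MARS overlaps DDIT3, a stress-response transcription factor gene, on the other strand over 982 bases, and DDIT3 went from 13.7 FPKM to 0.915 and 0.969 FPKM in A673 and from 10.7 to 1.07 and 1.16 FPKM in SKNMC. NARS, IARS, KARS, VARS, LARS, EPRS and QARS did not reach 1.5-fold in any library. LARS, the leucyl enzyme, was at 90.5, 90.5 and 108 FPKM in A673 and at 74.1, 60.3 and 82.0 FPKM in SKNMC, while LARS2 was at 4.57, 2.40 and 2.91 and at 11.7, 6.46 and 5.47 FPKM.

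The comparison of compartments was also made within an amino acid. In A673 the mitochondrial gene had the lower change in 9 of 13 pairs at the lower dose and in 10 at the higher dose. In SKNMC it did in 6 and in 7 pairs. The alanyl, histidyl, leucyl and asparaginyl pairs had the mitochondrial gene lower in all 4 comparisons. The cysteinyl, arginyl and valyl pairs had it higher in all 4, and in the arginyl pair RARS2 exceeded RARS by 0.47 and 0.62 in A673 and by 0.82 and 1.30 in SKNMC. The median difference over pairs was -0.33 and -0.19 in A673, and 0.16 and -0.17 in SKNMC, so at 50 nM in SKNMC the pairs did not share the direction of the class medians. The tyrosyl pair showed the widest shift with dose in SKNMC, from 0.64 to -1.09.

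**Figure D3:**
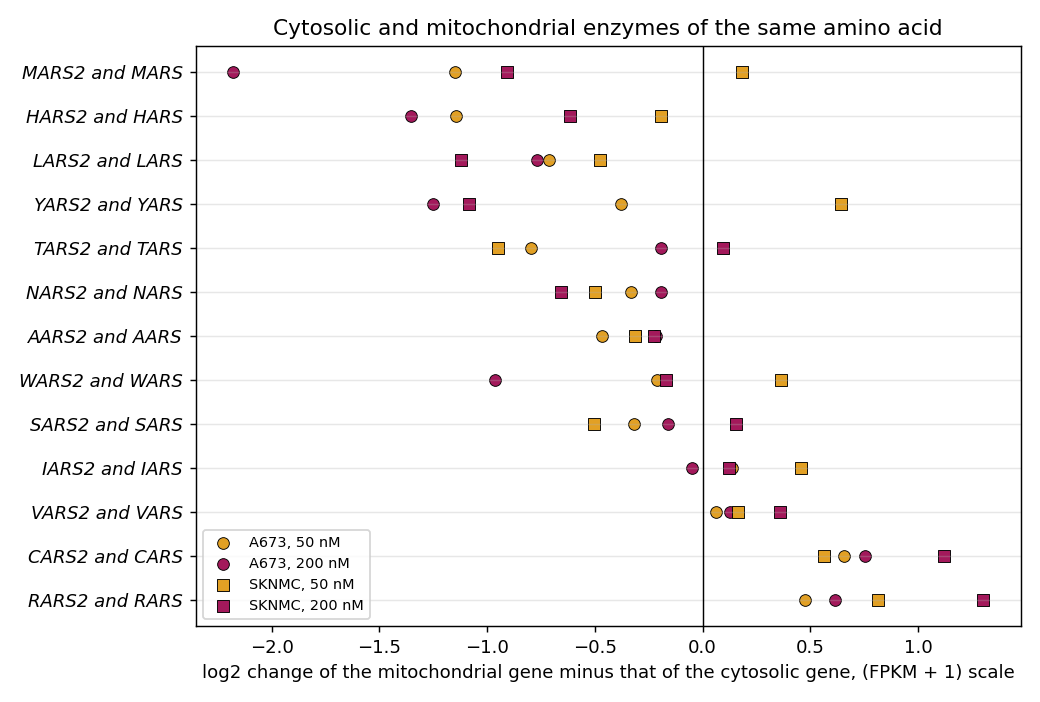
Change of the mitochondrial gene minus that of the cytosolic gene for 13 amino acids, log2 on the (FPKM + 1) scale, with circles for A673, squares for SKNMC, yellow for 50 nM and purple for 200 nM. Points left of 0 have the mitochondrial gene lower; MARS2 against MARS is at -2.18 in A673 at 200 nM, and RARS2 against RARS at 1.30 in SKNMC at 200 nM.

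The step from 50 to 200 nM was compared directly, without the DMSO libraries. MARS2 and YARS2 were lower by 1.5-fold or more at 200 nM in both lines, with steps of -0.85 and -1.06 and of -0.77 and -1.80. In A673 these were the only 2 members, against 18% of all active genes, and AARS2 was the only member higher by 1.5-fold, with 0.65, against 2.33%. In SKNMC 8 members were lower by 1.5-fold (MARS2, HARS2, YARS2, WARS2, FARS2, RARS, TARS and GARS), against 22.1%, and none was higher, against 3.77%. By sign, 11 of 36 members were lower at 200 nM in A673 and 23 in SKNMC, against 51.7% and 62.0% of all active genes. The same 11 were lower in both lines and 13 were higher in both, AARS, AARS2, EARS2, SARS2 and LARS among the latter. The shares of all genes with 1 sign, or past 1.5-fold, in both lines were not computed. The members had a median step of 0.12 in A673 and of -0.17 in SKNMC, and all active genes of -0.02 and -0.14. No library is shared between the lines, and across the 36 genes, which are not replicates, the steps correlated with Pearson's r = 0.89 and Spearman's rho = 0.83, against 0.80 and 0.76 across 10574 genes active in both lines. The changes against DMSO correlated between the lines with r = 0.78 at 50 nM and 0.84 at 200 nM over the members, against 0.84 and 0.82.

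**Figure D4:**
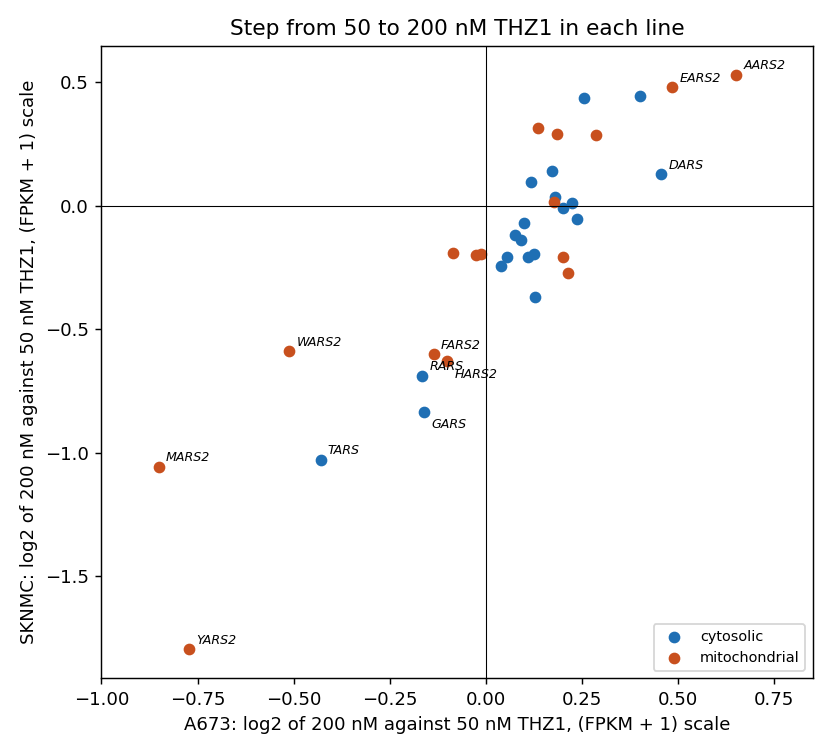
Log2 of 200 nM over 50 nM THZ1 on the (FPKM + 1) scale for each synthetase gene, A673 on the x axis and SKNMC on the y axis, with cytosolic genes in blue and mitochondrial genes in orange. YARS2 and MARS2 lie lowest in both lines, and AARS2 and EARS2 lie at the upper right, with steps of 0.65 and 0.48 in A673 and 0.53 and 0.48 in SKNMC.

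SKNMC had the lower change for most members. At 50 nM 19 of 20 cytosolic and 12 of 16 mitochondrial genes had a lower change in SKNMC than in A673, and at 200 nM 20 of 20 and 13 of 16 did, against 53.4% and 61.9% of genes active in both lines. The median gap was -0.22 and -0.51 for the cytosolic genes, -0.08 and -0.25 for the mitochondrial genes, and -0.02 and -0.12 for all. MARS2 and HARS2 went against this, with changes 0.87 and 0.94 higher in SKNMC at 50 nM and 0.66 and 0.41 higher at 200 nM. As a share of all listed FPKM, the 36 genes went from 0.412% to 0.361% and 0.377% in A673 and from 0.353% to 0.273% and 0.243% in SKNMC. The summed cytosolic FPKM stood at 88.2% and 94.5% of DMSO in A673, and at 76.8% and 68.0% in SKNMC. The mitochondrial sum stood at 75.6% and 76.5%, and at 75.6% and 64.9%.

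Of the features that the choice by symbol did not use, the catalytic class was compared next. Synthetases fall into class I and class II by the fold of their catalytic domain, and EPRS, which holds both, was left out. The class I genes had medians of -0.16 and -0.05 in A673 and of -0.38 and -0.58 in SKNMC, with 1, 2, 1 and 4 of 18 past a 2-fold fall, or 5.56%, 11.1%, 5.56% and 22.2%. The class II genes, FARSA, HARS2, PARS2, TARS2 and AARS2 among them, had medians of -0.47 and -0.26, and of -0.72 and -0.84, with 4, 2, 4 and 6 of 17, or 23.5%, 11.8%, 23.5% and 35.3%. The background was 15.9%, 25.3%, 15.8% and 27.3% of all active genes. Class I was below it in each comparison, and class II was above it in all but A673 at 200 nM. Since 1 of 18 genes is already 5.56%, these differences rest on few genes, and the class II counts were near the background. The 13 cytosolic genes listed as ATF4 targets had medians of -0.14 and -0.07 in A673 and of -0.47 and -0.59 in SKNMC, and the other 7 had -0.28 and -0.06, and -0.63 and -0.76. The 7 genes whose windows are printed above had medians of -0.15, -0.18, -0.47 and -0.79, and the 9 matched cytosolic genes without these letters -0.18, -0.06, -0.53 and -0.76, so the letters did not separate the genes by their change. ATF4 itself was at 256, 107 and 166 FPKM in A673 and at 225, 131 and 165 FPKM in SKNMC. A list of 17 genes of the ATF4 response outside the synthetases, ATF4 included, had medians of -0.22 and -0.38 in A673. In SKNMC its medians were -0.28 and -0.50. Past a 2-fold fall were 29.4% and 29.4% of the list in A673 and 23.5% and 41.2% in SKNMC, against the background above. By mean change the list ran from -2.69 for DDIT3 to 0.22 for PHGDH.

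Members of the multisynthetase complex and their scaffolds did not move alike. The 8 enzymes of the complex had medians of -0.10 and 0.08 in A673, and of -0.38 and -0.30 in SKNMC, and RARS at 200 nM in SKNMC was the only one past 2-fold. AIMP2, a scaffold that binds several of them, went from 62.8 FPKM to 31.4 and 23.5 FPKM in A673 and from 53.7 to 15.7 and 6.93 FPKM in SKNMC. EEF1E1 went from 137 to 94.2 and 81.2 FPKM, and from 75.5 to 42.2 and 27.3 FPKM. AIMP1 was at 40.8, 45.4 and 44.8 FPKM and at 37.3, 31.5 and 22.4 FPKM. The ratio of AIMP2 to AIMP1 went from 1.54 to 0.692 and 0.524 in A673, and from 1.44 to 0.499 and 0.309 in SKNMC. The amidotransferase that makes mitochondrial glutaminyl-tRNA showed a similar split, with the ratio of its subunits QRSL1 and PET112 going from 1.17 to 0.494 and 0.396, and from 0.887 to 0.382 and 0.328.

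**Figure D5:**
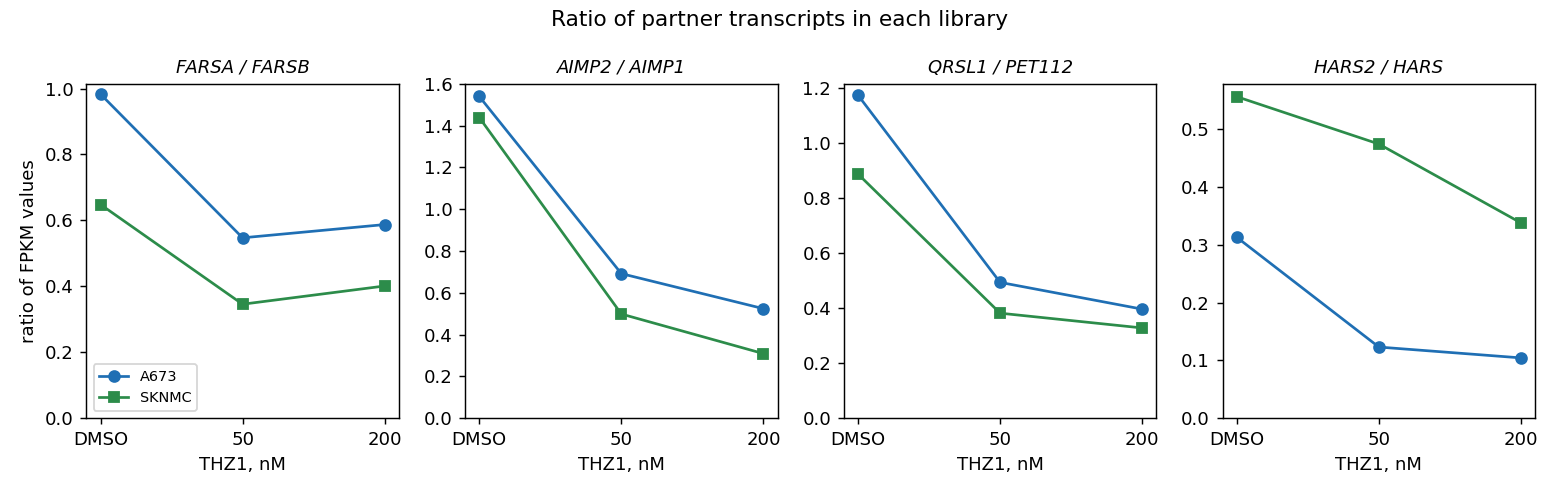
Ratio of FPKM values of partner transcripts with DMSO, 50 nM and 200 nM THZ1, for A673 (blue circles) and SKNMC (green squares). Each axis starts at 0, and all 4 ratios are lower in both THZ1 libraries of each line than in its DMSO library. The numerator is the partner with the lower mean change, so this direction largely follows from the choice of pairs. The mitochondrial genes of the cysteinyl, arginyl and valyl pairs, not drawn here, changed the other way against their cytosolic partners. AIMP2 over AIMP1 goes from 1.44 to 0.309 in SKNMC.

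Genes that supply tRNAs to the synthetases were described by the same counts, against the same background of 15.9% and 25.3% in A673 and 15.8% and 27.3% in SKNMC. Of 20 genes of RNA polymerase III and its factors, which transcribe tRNA genes, 8 and 10 were past a 2-fold fall in A673 and 6 and 12 in SKNMC, which is 40% and 50%, and 30% and 60%. Of these, POLR3C, a core subunit, went from 20.2 to 5.34 and 4.78 FPKM in A673. Of 29 genes of tRNA processing and export, 7 and 9 were past it in A673, and 10 and 15 in SKNMC, which is 24.1% and 31.0%, and 34.5% and 51.7%. RPP14, a subunit of RNase P, went from 15.4 to 2.07 and 1.85 FPKM in A673, and from 21.7 to 3.10 and 1.51 FPKM in SKNMC. Of 16 accessory genes of tRNA charging, 4 and 4, and 4 and 5 were past it, which is 25% and 25%, and 25% and 31.2%. These counts were near the background, with the same 4 of 16 at 50 nM as the mitochondrial synthetases. PTRH2 had the lowest mean change of them. The 76 mitochondrial ribosomal protein genes had medians of -0.32 and -0.26 in A673 and of -0.47 and -0.79 in SKNMC, and 83 active cytosolic ribosomal protein genes had 0.20, 0.36, 0.37 and 0.59. In these medians the cytosolic synthetases therefore stood below the cytosolic ribosomal proteins in all 4 comparisons, and the mitochondrial synthetases below the mitochondrial ribosomal proteins in all but SKNMC at 200 nM.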

How the data were processed

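Conditions were taken from the sample labels, with 1 library per condition. Paired-end reads of 100 bp from TruSeq libraries were aligned by the authors to hg19 with STAR and Ensembl 75. They deposited FPKM values, estimated with StringTie per the methods, while the submitters' notes name Cufflinks. The deposited table also holds 4 columns of the authors' log2 fold changes, which were not used, and its title speaks of averages although each column carries 1 label.

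A pseudocount of 1 was added, active genes were above 1 FPKM with DMSO, and called genes were 2-fold apart. Python 3.11.15 with pandas 2.3.3 and numpy 2.4.6 was used, and limma 3.58.1 in R 4.3.3 for the fit over both lines (log2 values, line and dose as terms, mean-variance trend, Benjamini-Hochberg adjustment over 10574 genes); the steps were tested on simulated data. Low-value steps gave THZ1 libraries 88.8% to 96.6% of the DMSO depth, with at most 0.620% of low values at the step, so the depth is unknown and no counting interval was given. Exons came from GENCODE release 44 on GRCh37 and promoters from RefSeq.

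Every member was named. Values in 6 libraries were given for members past 2-fold in any comparison, the 3 lowest and 3 highest by mean change, HARS, HARS2, GARS and KARS. FARSB, EPRS, LARS, LARS2, ATF4, DDIT3 and the scaffolds were added after their values were seen. The ratios of partner transcripts, that of QRSL1 to PET112 among them, were not planned. The members and lists were chosen with earlier results of these data known. Alternatives were a pseudocount of 0.1, no filter, a filter at 5 FPKM, 3 scalings, GARS and KARS left out, and a 1.5-fold threshold. The value of 1 of the marker genes is not reported here.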

Additional observations from a re-analysis of the deposited data

Results flagged for a closer look

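Of 39 genes looked at, the synthetases and the 3 scaffolds of the multisynthetase complex, 3 lay above DMSO in each THZ1 library of A673 and below it in each of SKNMC. With 1 library per condition, this difference was not tested. EPRS, the cytosolic glutamyl-prolyl enzyme, changed by 0.206 and 0.262 in A673 at the lower and higher dose, and by -0.0312 and -0.239 in SKNMC. VARS, the cytosolic valyl enzyme, changed by 0.0276 and 0.144 in A673, and by -0.122 and -0.0266 in SKNMC, and its FPKM was 72.5, 73.9 and 80.2 in A673 and 48.6, 44.5 and 47.7 in SKNMC. AIMP1, a scaffold of the complex, changed by 0.152 and 0.132 in A673, and by -0.237 and -0.712 in SKNMC. Opposite signs of this kind, in either direction, were found in 5.27% of genes active in both lines. They were kept with a common sum by EPRS and AIMP1, and by none of the 3 genes with the 75th percentile or the ribosomal protein genes as the scale.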

How the results depend on the processing

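The changes are taken within a line and have no test. The fit over both lines, with the line as the replicate block, was added after the data were seen. Without 1 library in turn, which leaves 1 residual degree of freedom, it called 2 to 12 cytosolic and 7 to 9 mitochondrial genes lower at 50 nM, and 5 to 13 and 6 to 12 at 200 nM, with 23.6% to 43.2% and 44.4% to 53.3% of all genes. The cytosolic count of 7 at 50 nM became 12, 3 and 11 without A673 with DMSO, 50 and 200 nM, and 4, 2 and 11 without those of SKNMC. At 200 nM the counts were 5 and 7 without SKNMC with DMSO and 5 and 6 without SKNMC at 200 nM. With ribosomal protein genes as the scale it called 15 and 16 cytosolic and 11 and 13 mitochondrial genes lower, against 58% and 76.6% of all genes, and with the 75th percentile the background was 25.1% and 31.9%. The mitochondrial median stayed below the cytosolic one under every alternative, with differences from -0.069 to -0.48, and the pair counts moved by at most 1 pair. A scaling multiplies all genes of a library by the same factor. Apart from the pseudocount, the 3 scalings therefore could not change these differences or the order within a pair. Pair counts were made only with these scalings and with a pseudocount of 0.1. Counting genes above 5 FPKM, the A673 50 nM mitochondrial median was -0.51 and the difference -0.35. A common sum left 0 cytosolic falls in A673 at 50 nM, against 15.3% of all active genes. Scaling to the 75th percentile shifted the median over active genes by 0.22 and 0.32 in A673 and 0.25 and 0.48 in SKNMC. Cytosolic medians became 0.091, 0.30, -0.21 and -0.039, in the order of A673 at 50 and 200 nM and SKNMC at 50 and 200 nM, and mitochondrial ones -0.37, -0.10, -0.45 and -0.22. Cytosolic falls of 2-fold were 0 in A673 at 50 nM and 0 in SKNMC at 200 nM, and mitochondrial falls 1 and 3 in SKNMC, against 11.0%, 17.3%, 10.3% and 13.4% of all active genes. Ribosomal protein genes as the scale shifted that median by -0.19, -0.29, -0.34 and -0.47. Cytosolic medians became -0.39, -0.42, -0.90 and -1.18 and mitochondrial ones -0.82, -0.73, -1.06 and -1.25. Cytosolic falls were 1 in A673 at 200 nM and 7 and 13 in SKNMC, and mitochondrial falls 9 and 12 in SKNMC, against 21.3%, 34.5%, 28% and 51.1% of all active genes. At 1.5-fold, cytosolic falls were 4, 2, 7 and 12, and mitochondrial falls 8 in A673 at 50 nM and 9 and 11 in SKNMC. Why the scalings move the values was not tested. For single genes, the sign changed in 35 of 144 values with the 75th percentile, none above 0.43 in size, and in 28 with ribosomal protein genes, none above 0.33. Depth limits PARS2 most, whose THZ1 values are at most 0.350 FPKM.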
